A study of Mus musculus with 16 samples.

Results

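The genes described are 10 that act in the sensing of DNA and RNA in the cytosol: Ifih1, Ddx58, Dhx58, Mavs, Zbp1, Aim2, Tbk1, Ikbke, Trex1 and Adar. They were taken by gene symbol from a table of 55573 gene records, each matched 1 record, and all 10 were among the 13107 genes that passed a filter on low counts. RNA was sequenced from RAW264.7, a macrophage-like mouse line that Abelson leukaemia virus had transformed, in 16 libraries, with 4 libraries for ORP5/8 KD, 4 for ATP11A/C KD, 4 for CDC50A KD and 4 for Parental. ORP5 and ORP8 (genes Osbpl5 and Osbpl8) deliver the lipid phosphatidylserine from its site of synthesis to the plasma membrane, ATP11A is a flippase that keeps this lipid on the cytosolic side of that membrane, and CDC50A (gene Tmem30a) is the partner subunit of most flippases. KD, the usual short form of knockdown, is not spelled out in the labels. KD libraries have names that start with "sh", a prefix that the labels leave unexplained. The Parental libraries are also named "Ctrl", and no construct is named for them. All 4 groups are the same cell line, collected the day after plating with no cargo or stimulus named. No library is labelled as carrying a control construct. Nothing in the labels says that the 4 libraries of a group came from separate cultures, so the p-values reflect the spread among libraries of a group, and that spread may be technical.

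Foreign or misplaced nucleic acid in the cytosol is recognised by several families of proteins. The helicases MDA5 (Ifih1) and RIG-I (Ddx58) bind double-stranded RNA and RNA ends, and LGP2 (Dhx58) is their relative that lacks a signalling domain. Both signalling helicases act through MAVS on the outer mitochondrial membrane, which recruits the kinases TBK1 (Tbk1) and IKK-epsilon (Ikbke) to phosphorylate interferon regulatory factors and switch on type I interferon. ZBP1 binds Z-form nucleic acid and can start necroptosis, and AIM2 binds double-stranded DNA and assembles an inflammasome. TREX1 degrades cytosolic DNA and ADAR edits adenosines in double-stranded RNA, so both remove the substrates of these sensors. Many of these genes are themselves induced by interferon, in macrophages as in other cells, through transcription factors, IRF9 among them, that bind the interferon-stimulated response element (ISRE).

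The deposited values are estimated counts per gene. Totals per library ran from 24020891 to 41543050 counts, and a member had between 40 and 14583 counts in a library. Levels are in CPM (counts-per-million) after TMM scaling, a correction for library composition, as mean ± SD of 4 libraries. The coefficient of variation of a member within a group ran from 0.902% to 17.1%, with a median of 5.66%. Osbpl8 averaged 99.1 ± 8.17 CPM in ORP5/8 KD, 127 ± 8.98 CPM in ATP11A/C KD and 116 ± 4.41 CPM in CDC50A KD, against 337 ± 5.84 CPM in Parental, so it was low in all 3 KD groups. Osbpl5 stayed below the low-count filter, at 0.176 ± 0.107 CPM in ORP5/8 KD and 0.140 ± 0.0722 CPM in Parental. Atp11a averaged 53.3 ± 0.604 CPM in ORP5/8 KD, 21.4 ± 0.843 CPM in ATP11A/C KD and 43.1 ± 1.36 CPM in CDC50A KD, against 61.4 ± 1.91 CPM in Parental. Tmem30a averaged 130.5 ± 10.4 CPM in ORP5/8 KD, 142 ± 13.1 CPM in ATP11A/C KD and 127 ± 5.80 CPM in CDC50A KD, against 162 ± 4.83 CPM in Parental. It was called lower in all 3 KD groups, and ORP5/8 KD did not differ detectably from CDC50A KD (log2 fold change 0.040 ± 0.0611, adjusted p = 0.6 in edgeR). The 10 macrophage markers examined summed to between 7564 and 7981 CPM in ORP5/8 KD, 6394 and 6762 CPM in ATP11A/C KD and 7425 and 7722 CPM in CDC50A KD, against 11660 to 12390 CPM in Parental. Lyz2, the lysozyme gene, made up most of the Parental sum, with 4168 ± 170.3 CPM in ORP5/8 KD, 2582 ± 133 CPM in ATP11A/C KD and 2859 ± 60.1 CPM in CDC50A KD, against 7207 ± 301 CPM in Parental. The other 9 markers summed to between 3553 and 3724 CPM, 3798 and 4219 CPM, and 4582 and 4779 CPM in the 3 KD groups, against 4675 to 4944 CPM in Parental, so without Lyz2 the CDC50A KD libraries overlapped Parental. Of the 10 markers 9, 8 and 6 were called lower in the 3 KD groups in that order, where 24.3%, 20.2% and 26.1% of all tested genes were, and 1, 1 and 2 were called higher, where 22%, 17.4% and 24.3% of all tested genes were. Adgre1, which encodes F4/80, rose in all 3, by 0.21, 0.63 and 0.50 on the log2 scale, and Csf1r, which encodes the receptor for M-CSF, rose by 0.18 in CDC50A KD. Summed markers of epithelium, fibroblasts, lymphocytes, and mast cells with neutrophils were each under 1 CPM in every library, and those of dendritic cells reached at most 3.85 CPM, with Flt3, Cd209a and Ccr7 at 0. Mitochondrial genes held 1.52% to 1.77% of counts in ORP5/8 KD, 1.37% to 1.78% in ATP11A/C KD and 1.42% to 1.76% in CDC50A KD, against 1.08% to 1.26% in Parental. The part of the changed macrophage markers and of the higher mitochondrial share in the results that follow was not tested.

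Most of these sensors were lower in all 3 KD groups than in Parental, and lowest in ORP5/8 KD. A gene was called when the Benjamini-Hochberg adjusted p of edgeR's quasi-likelihood test, fitted on all 16 libraries and adjusted over all 13107 genes, was under 0.05. In ORP5/8 KD against Parental 7 of the 10 fell and 1, Aim2, rose, while 24.3% of all tested genes were called lower and 22% higher. In ATP11A/C KD against Parental 8 of the 10 fell, against 20.2% of all tested genes called lower and 17.4% called higher, and Mavs and Aim2 were not called. In CDC50A KD against Parental 8 of the 10 fell as well, against 26.1% called lower and 24.3% called higher, and the same 2 genes were not called. The falls were at least 2-fold for 6 members in ORP5/8 KD, for 4 in ATP11A/C KD and for 1 in CDC50A KD, where 4.21%, 3.55% and 4.8% of all tested genes fell that far. The median log2 fold change of the 10 was -1.28 for ORP5/8 KD, -0.71 for ATP11A/C KD and -0.64 for CDC50A KD, beside medians over all tested genes of 0.0162, 0.0117 and -0.0098. The 3 comparisons share the Parental libraries, and the 10 genes were chosen with earlier results of these data known. With upper-quartile scaling the split of all calls in ORP5/8 KD against Parental moved to 63.3% higher, from 47.5% with TMM. Mavs was then also called higher in ORP5/8 KD, which made 2 higher calls among the members. In bulk RNA, fewer cells that express a gene and less RNA of it in each cell cannot be told apart.

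**Figure D1:**
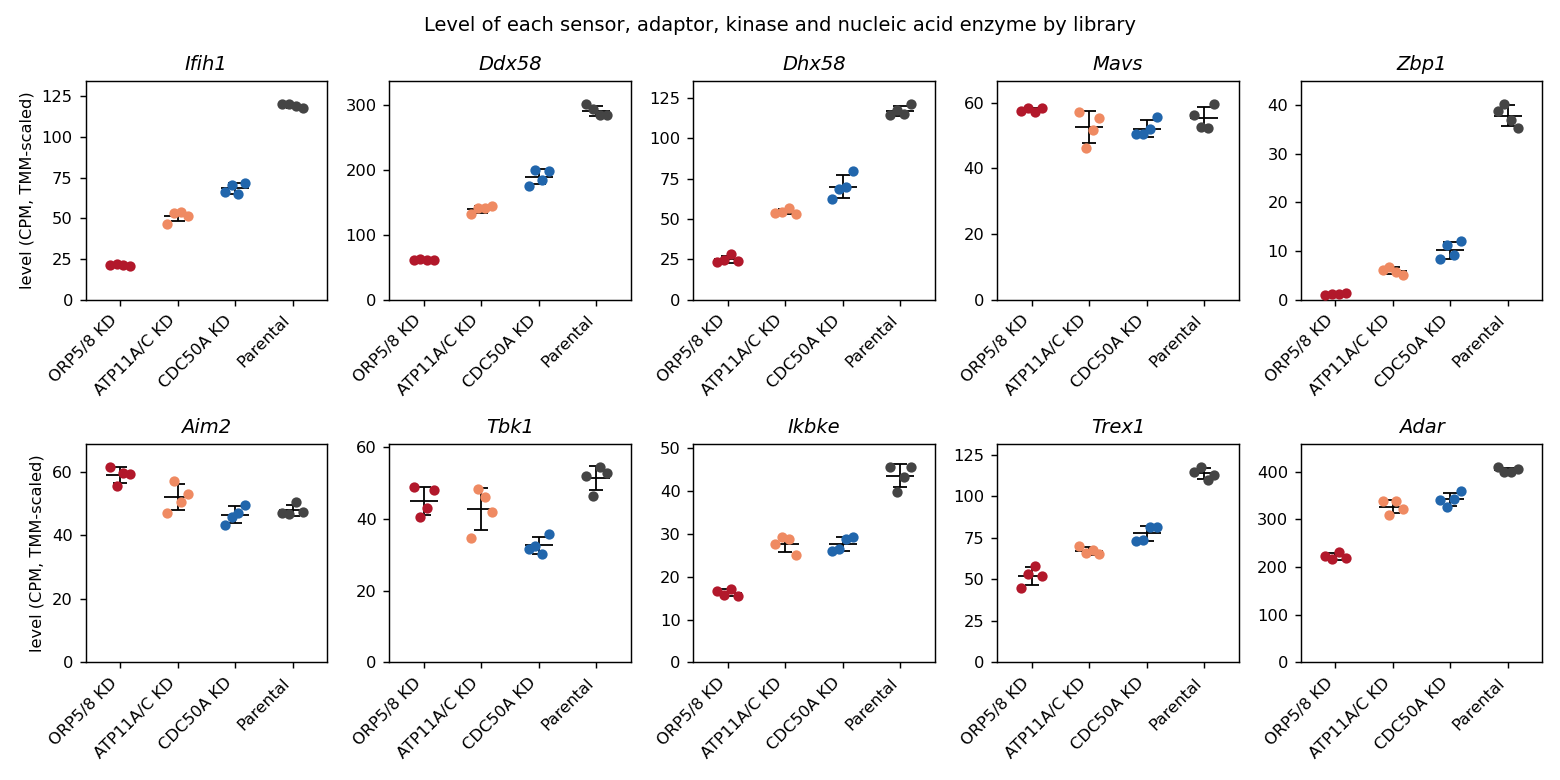
Level of each of the 10 genes in CPM (vertical axis, linear from 0) in every library of ORP5/8 KD, ATP11A/C KD, CDC50A KD and Parental; points are libraries, the bar is the mean and the whiskers are 1 SD of 4 libraries. For Ifih1, Ddx58, Dhx58, Zbp1, Ikbke, Trex1 and Adar all 12 KD libraries lie under all 4 Parental libraries, whereas for Mavs each KD group overlaps Parental. The share of all tested genes that separate in this way was not counted.

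The sequence around the start of transcription was available for 8 of the 10 genes, in 11 windows of 300 bases (RefSeq, build GRCm38.p6, from 250 bases before the start to 50 after it). Zbp1 and Dhx58 were not among them. The 3 windows that hold a match to the ISRE letters or a close variant are shown first, those of Ifih1, Ddx58 and Adar. The windows of Ikbke and Trex1 (the first of 2) are shown because these genes fell along with them in all 3 KD groups while their windows hold no match, and that of Mavs because it was not called against Parental. The genes that fell thus include some with and some without a match. Each is printed 5′ to 3′ on the gene's strand, with the matches to the ISRE letters or the variant in capitals.
Ifih1 (chr2:62646206-62646505, minus strand): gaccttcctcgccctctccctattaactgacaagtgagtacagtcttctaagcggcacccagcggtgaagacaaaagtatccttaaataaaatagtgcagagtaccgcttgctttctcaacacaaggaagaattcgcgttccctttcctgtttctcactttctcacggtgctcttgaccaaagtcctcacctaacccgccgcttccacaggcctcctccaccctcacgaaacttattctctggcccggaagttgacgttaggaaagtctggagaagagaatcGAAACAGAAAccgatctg
Ddx58 (chr4:40239776-40240075, minus strand): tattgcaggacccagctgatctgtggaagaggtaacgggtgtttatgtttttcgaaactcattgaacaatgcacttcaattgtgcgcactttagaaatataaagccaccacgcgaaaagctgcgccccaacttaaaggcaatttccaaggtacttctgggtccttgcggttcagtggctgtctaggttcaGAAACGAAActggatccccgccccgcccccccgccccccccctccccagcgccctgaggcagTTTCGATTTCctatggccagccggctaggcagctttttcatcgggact
Adar (chr3:89730468-89730767, plus strand): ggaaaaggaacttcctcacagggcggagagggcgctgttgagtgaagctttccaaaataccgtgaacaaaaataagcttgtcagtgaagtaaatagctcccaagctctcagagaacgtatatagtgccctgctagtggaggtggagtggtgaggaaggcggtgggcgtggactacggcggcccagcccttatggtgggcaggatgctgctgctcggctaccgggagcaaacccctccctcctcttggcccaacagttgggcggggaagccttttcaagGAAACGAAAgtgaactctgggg
Ikbke (chr1:131279514-131279813, minus strand): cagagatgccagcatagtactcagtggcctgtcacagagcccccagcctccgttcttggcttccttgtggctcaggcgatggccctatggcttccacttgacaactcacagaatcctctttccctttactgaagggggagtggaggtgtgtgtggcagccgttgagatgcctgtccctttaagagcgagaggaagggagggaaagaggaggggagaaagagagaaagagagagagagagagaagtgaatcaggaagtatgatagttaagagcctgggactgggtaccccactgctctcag
Trex1 (chr9:109059202-109059501, minus strand): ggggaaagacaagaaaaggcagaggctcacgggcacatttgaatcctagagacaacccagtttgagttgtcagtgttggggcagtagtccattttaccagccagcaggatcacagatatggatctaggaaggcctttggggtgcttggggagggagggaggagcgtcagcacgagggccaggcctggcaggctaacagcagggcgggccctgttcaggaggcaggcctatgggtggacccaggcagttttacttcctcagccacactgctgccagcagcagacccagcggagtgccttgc
Mavs (chr2:131233813-131234112, plus strand): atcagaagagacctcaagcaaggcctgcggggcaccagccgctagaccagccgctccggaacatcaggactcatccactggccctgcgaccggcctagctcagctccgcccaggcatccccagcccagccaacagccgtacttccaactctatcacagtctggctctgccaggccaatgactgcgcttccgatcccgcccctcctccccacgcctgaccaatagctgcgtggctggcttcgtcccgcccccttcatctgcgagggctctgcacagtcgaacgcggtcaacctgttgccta

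The motif searched first was the core of the ISRE on both strands, which is GAAA, 2 bases of any kind and GAAA again. It was found in the windows of Ifih1, as GAAACAGAAA from base 33 after the start, and Ddx58, as TTTCGATTTC on the printed strand from base 3. The ISRE core occurred in 3.44% of all 32851 promoter windows. A variant with 1 base between the GAAA units, GAAANGAAA, was searched on both strands after the sequences had been seen. It matched Ddx58 from base -60 and the third of 3 Adar windows from base 29, and it occurred in 3.17% of all windows. The gamma-activated site motif (GAS), TTCNNNGAA, matched only in that Adar window among the 11, where it overlaps the variant match by 3 bases and begins 6 bases before it, and it was found in 8.3% of all windows. The kappa B motif (GGGAA, 3 bases of any kind and CC, on both strands) was found in 5.78% of all windows and in none of the 11. The windows of Mavs, Tbk1, Aim2, Ikbke and Trex1 had no match to any of the 4 motifs, which says only that these letters are not in these windows.

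The RNA-binding helicases fell together. Ifih1, which encodes MDA5 (chr2:62595798-62646255, minus strand on GRCm38), had 21.2, 21.8, 21.2 and 20.9 CPM in the ORP5/8 KD libraries, against 119.8, 119.8, 119 and 118 CPM in the Parental libraries. It had 46.8, 53.5, 53.7 and 51.4 CPM in ATP11A/C KD and 66.3, 70.5, 65.1 and 71.6 CPM in CDC50A KD. No library of one group overlapped another group. How common such separation is among all tested genes was not counted, for this gene or for those below. The order of the groups was the same as in the other 2 helicases, with ORP5/8 KD lowest, then ATP11A/C KD, then CDC50A KD. The log2 fold changes of Ifih1 against Parental (± SE) were -2.48 ± 0.0482 for ORP5/8 KD, -1.21 ± 0.0453 for ATP11A/C KD and -0.80 ± 0.0448 for CDC50A KD (adjusted p = 1.08e-19, 9.2e-15 and 6.27e-12, edgeR). These correspond to 17.9%, 43.1% and 57.4% of the Parental mean.

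Ddx58, which encodes RIG-I (chr4:40203773-40239828, minus strand), had 61.1, 63.5, 61.6 and 62.1 CPM in ORP5/8 KD, 132, 141, 141 and 145 CPM in ATP11A/C KD and 176, 199, 185 and 199 CPM in CDC50A KD, against 301, 294, 285 and 285 CPM in Parental. The 4 groups again did not overlap. Its log2 fold changes against Parental were -2.23 ± 0.0457, -1.06 ± 0.0438 and -0.62 ± 0.0434 in the ORP5/8, ATP11A/C and CDC50A KD groups (adjusted p = 2.05e-19, 5.04e-14 and 2.14e-10). Dhx58, which encodes LGP2 (chr11:100694884-100704271, minus strand), had 23.5, 24.8, 28.1 and 23.8 CPM in ORP5/8 KD, 54.0, 54.7, 56.7 and 53.4 CPM in ATP11A/C KD and 62.4, 68.9, 69.6 and 79.6 CPM in CDC50A KD, against 114, 118, 115 and 121 CPM in Parental. It too separated all 4 groups, and its fold changes lay near those of Ddx58. They were -2.22 ± 0.0642, -1.10 ± 0.0609 and -0.74 ± 0.0604 on the log2 scale in the same order (adjusted p = 3.47e-17, 5.26e-12 and 2.57e-09). An antisense record overlaps 4.31% of the exon bases of Dhx58 and had no counts.

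The 2 signalling helicases did not keep a constant ratio. That of Ddx58 to Ifih1 counts within a library averaged 2.92 ± 0.0327 for ORP5/8 KD, 2.72 ± 0.112 for ATP11A/C KD and 2.77 ± 0.0880 for CDC50A KD, against 2.45 ± 0.0483 for Parental. The lowest KD library, at 2.62, lay above the highest Parental library, at 2.51, so relative to Ddx58 the Ifih1 counts were lower in every KD library. This difference was not tested.

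Mavs, the adaptor of both signalling helicases (chr2:131234063-131248025, plus strand), was called in none of the 3 comparisons with Parental. It had 57.5, 58.4, 57.3 and 58.5 CPM in ORP5/8 KD, 57.1, 46.2, 51.8 and 55.5 CPM in ATP11A/C KD and 50.4, 50.4, 52.1 and 55.7 CPM in CDC50A KD, against 56.4, 52.7, 52.4 and 59.5 CPM in Parental. Each KD group overlapped Parental. The 95% confidence intervals of its log2 fold change against Parental were -0.053 to 0.19 for ORP5/8 KD, -0.19 to 0.051 for ATP11A/C KD and -0.20 to 0.038 for CDC50A KD (adjusted p = 0.361, 0.374 and 0.246). With upper-quartile scaling the value in ORP5/8 KD was 0.14 and passed the threshold (adjusted p = 0.0447). The ratio of sensor to adaptor was lower in every KD library than in every Parental library: Ifih1 had 0.368 ± 0.00689 counts per Mavs count for ORP5/8 KD, 0.986 ± 0.146 for ATP11A/C KD and 1.31 ± 0.0627 for CDC50A KD, against 2.16 ± 0.141 for Parental.

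**Figure D2:**
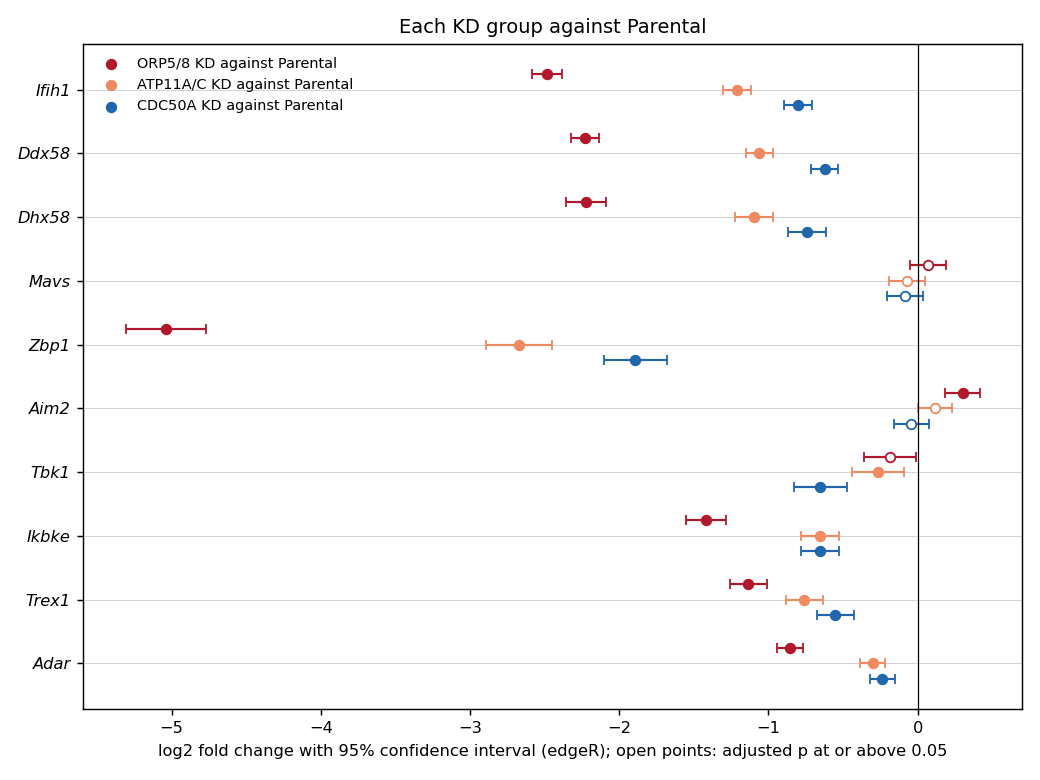
Log2 fold change of each gene (horizontal axis) in each KD group against Parental, with 95% confidence intervals from edgeR; filled points were called at an adjusted p under 0.05 and open points were not. Zbp1 lies furthest to the left in all 3 comparisons, at -5.04, -2.67 and -1.89, the intervals of Mavs include zero, and Aim2 is the only gene called to the right, in ORP5/8 KD.

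Zbp1, the sensor of Z-form nucleic acid (chr2:173206612-173218923, minus strand), had the lowest log2 fold changes of the 10. It had 1.05, 1.10, 1.11 and 1.34 CPM in ORP5/8 KD, against 38.8, 40.1, 37.0 and 35.2 CPM in Parental. It had 6.09, 6.79, 5.79 and 5.06 CPM in ATP11A/C KD and 8.32, 11.3, 9.19 and 12.03 CPM in CDC50A KD. The 4 groups did not overlap, and ORP5/8 KD kept 3.04% of the Parental mean, ATP11A/C KD 15.7% and CDC50A KD 27.0%. The log2 fold changes were -5.04 ± 0.128, -2.67 ± 0.105 and -1.89 ± 0.1003 (adjusted p = 5.09e-18, 2.26e-14 and 2.59e-12), so that Zbp1 was 32.9-fold, 6.37-fold and 3.71-fold lower. Counted from the lowest log2 fold change, Zbp1 stood at rank 11, 36 and 188 of the 13107 tested genes in the 3 comparisons. The ORP5/8 KD value rests on 182 counts over 4 libraries, beside 4923 in Parental. The ratio to Ifih1 was also lower in every KD library than in every Parental library: there were 0.0540 ± 0.00679 Zbp1 counts per Ifih1 count for ORP5/8 KD, 0.116 ± 0.0152 for ATP11A/C KD and 0.149 ± 0.0193 for CDC50A KD, against 0.317 ± 0.0154 for Parental.

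Of 8 tested genes through which ZBP1 acts in cell death, 4 fell in ORP5/8 KD, 3 fell and 2 rose in ATP11A/C KD, and 2 fell and 2 rose in CDC50A KD. The shares lower were 50%, 37.5% and 25%, beside 24.3%, 20.2% and 26.1% of all tested genes. The shares higher were 0%, 25% and 25%, beside 22%, 17.4% and 24.3%, so both CDC50A KD shares lay near those of all genes. Single calls moved the number that rose: it was 1 in ORP5/8 KD with upper-quartile scaling or without ORP5/8 KD 1, and 1 in ATP11A/C KD without Parental 4 or ATP11A/C KD 1. Mlkl, which encodes the pore-forming executor of necroptosis, fell in all 3 groups, with 14.4 ± 0.305, 20.1 ± 0.857 and 21.4 ± 0.810 CPM in the ORP5/8, ATP11A/C and CDC50A KD groups, against 33.0 ± 1.37 CPM in Parental. Ripk3, which encodes the kinase that binds ZBP1 and activates MLKL, fell in ORP5/8 KD and rose in the other 2 KD groups. It averaged 27.4 ± 1.88 CPM in ORP5/8 KD, 47.7 ± 0.604 CPM in ATP11A/C KD and 54.4 ± 1.96 CPM in CDC50A KD, against 35.5 ± 2.28 CPM in Parental. Its log2 fold changes were -0.37 ± 0.0544, 0.43 ± 0.0534 and 0.62 ± 0.0535 (adjusted p = 8.51e-06, 1.48e-06 and 6.78e-09). Cflar, which encodes the caspase-8 inhibitor cFLIP, fell in all 3 groups by 0.60, 0.34 and 0.53 on the log2 scale. Casp8, which encodes the protease that cuts RIPK3, fell in ORP5/8 KD (log2 fold change -0.33 ± 0.0514, adjusted p = 1.73e-05) and had values of -0.094 and -0.056 that were not called in ATP11A/C and CDC50A KD. Fadd, the adaptor that recruits caspase-8, rose by 0.21 in ATP11A/C KD and by 0.31 in CDC50A KD, and its value of 0.13 in ORP5/8 KD was not called.

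Aim2, the sensor of double-stranded DNA (chr1:173350879-173466040, plus strand), was the one member that rose against Parental. It had 61.5, 55.7, 59.7 and 59.4 CPM in ORP5/8 KD, against 47.1, 46.9, 50.5 and 47.4 CPM in Parental, and the libraries did not overlap. The rise was 1.23-fold (log2 fold change 0.30 ± 0.0554, adjusted p = 0.000132). In ATP11A/C KD it had 47.2, 57.0, 50.7 and 53.1 CPM and in CDC50A KD 43.4, 45.7, 47.2 and 49.7 CPM, both overlapping Parental. Those log2 fold changes were 0.12 ± 0.0557 and -0.044 ± 0.0562 and were not called (adjusted p = 0.109 and 0.546). Without the library ATP11A/C KD 1 the first of these was 0.16 and was called (adjusted p = 0.0254).

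Most of the called inflammasome genes fell. The 6 tested were Casp1, Casp4, Gsdmd and Il18, and Nlrp3 and Nlrc4, which encode sensors of other inflammasomes. Of these 5 fell in ORP5/8 KD, and 4 fell and 1 rose in each of ATP11A/C and CDC50A KD. The shares lower were 83.3%, 66.7% and 66.7%, beside 24.3%, 20.2% and 26.1% of all tested genes. The shares higher were 0%, 16.7% and 16.7%, beside 22%, 17.4% and 24.3%, so the share higher in ATP11A/C KD lay near that of all genes. Casp1, the inflammasome protease, averaged 34.4 ± 2.16 CPM in ORP5/8 KD, 41.6 ± 4.89 CPM in ATP11A/C KD and 43.2 ± 2.57 CPM in CDC50A KD, against 51.1 ± 3.76 CPM in Parental. Gsdmd, which encodes the pore protein gasdermin D, fell by 0.42, 0.46 and 0.62 on the log2 scale. Casp4, an inflammatory caspase, fell by 1.75, 0.42 and 0.63. Il18, which encodes a cytokine that caspase-1 matures, fell by 0.39 in ORP5/8 KD and rose by 0.26 in ATP11A/C KD. Nlrp3 fell in ORP5/8 KD (log2 fold change -0.82 ± 0.0424, adjusted p = 6.73e-13). Its rise in CDC50A KD was 0.10 (adjusted p = 0.0484), and that list had no higher call in CDC50A KD without Parental 1, 2 or 3 or without CDC50A KD 2, 3 or 4, with DESeq2 size factors, without the low-count filter or with a filter of 1 CPM. Pycard, which encodes the adaptor ASC, had no counts in any of the 16 libraries, which allows at most 0.00527 CPM (3 counts over the summed total). RAW264.7 cells are known to lack ASC.

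Of the 2 kinases, Ikbke fell in all 3 KD groups and Tbk1 in ATP11A/C KD and CDC50A KD. Ikbke, which encodes the interferon-inducible kinase IKK-epsilon (chr1:131254343-131279606, minus strand), had 16.7, 15.7, 17.1 and 15.5 CPM in ORP5/8 KD, 27.6, 29.2, 28.8 and 25.0 CPM in ATP11A/C KD and 26.0, 26.5, 28.8 and 29.2 CPM in CDC50A KD, against 45.5, 39.8, 43.2 and 45.5 CPM in Parental. All 12 KD libraries lay below Parental, ORP5/8 KD lay lowest, and the other 2 KD groups overlapped. The log2 fold changes were -1.42 ± 0.0633, -0.65 ± 0.0614 and -0.65 ± 0.0617 (adjusted p = 6.24e-14, 2.36e-08 and 2.41e-08). Tbk1, which encodes the kinase that most cell types express constitutively (chr10:121546455-121586787, minus strand), had 48.7, 40.5, 43.1 and 47.8 CPM in ORP5/8 KD, 34.7, 48.2, 46.0 and 41.9 CPM in ATP11A/C KD and 31.7, 32.5, 30.3 and 35.8 CPM in CDC50A KD, against 51.8, 46.4, 54.3 and 52.8 CPM in Parental. Here CDC50A KD was lowest and lay apart from Parental, whereas ORP5/8 KD and ATP11A/C KD overlapped Parental. The log2 fold change in CDC50A KD was -0.65 ± 0.0854 (adjusted p = 2.28e-06).

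The other Tbk1 values lay close to the threshold. The value in ATP11A/C KD was -0.27 ± 0.0838 (adjusted p = 0.0162), and the call was lost without Parental 3 (adjusted p = 0.0514) or without ATP11A/C KD 1 (adjusted p = 0.0573). The value in ORP5/8 KD was -0.19 ± 0.0834 and was not called (adjusted p = 0.0715). It passed the threshold without the low-count filter (adjusted p = 0.0388), with the compared groups fitted alone (adjusted p = 0.0222) and without Parental 2 (adjusted p = 0.0499). There were 0.363 ± 0.0344 Ikbke counts per Tbk1 count for ORP5/8 KD and 0.656 ± 0.0931 for ATP11A/C KD, while CDC50A KD, at 0.850 ± 0.0664, differed from Parental, at 0.848 ± 0.0371, by less than the spread between libraries.

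The enzymes that act on nucleic acid also fell, with log2 fold changes nearer to 0 than those of the helicases. Trex1, which encodes the DNA exonuclease (chr9:109057933-109059734, minus strand), had 44.6, 53.1, 57.8 and 51.9 CPM in ORP5/8 KD, 70.2, 65.6, 68.0 and 65.2 CPM in ATP11A/C KD and 73.2, 74.0, 81.8 and 81.7 CPM in CDC50A KD, against 115, 118, 110.0 and 113 CPM in Parental. The 4 groups did not overlap. Its log2 fold changes were -1.13 ± 0.0604, -0.76 ± 0.0598 and -0.55 ± 0.0597 (adjusted p = 1.21e-12, 1.52e-09 and 1.76e-07). All 1147 exon bases of Trex1 are also exon bases of Atrip on the same strand, so the estimated counts divide shared reads between the 2 genes and the Trex1 values are uncertain. Atrip averaged 22.6 ± 0.999 CPM in ORP5/8 KD, 22.2 ± 0.805 CPM in ATP11A/C KD and 22.8 ± 1.64 CPM in CDC50A KD, against 24.1 ± 1.74 CPM in Parental, and was called in none of the 3 comparisons (adjusted p = 0.253, 0.150 and 0.318).

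Adar, which encodes the RNA-editing deaminase (chr3:89715022-89753446, plus strand), had 224, 217, 232 and 219 CPM in ORP5/8 KD, 339, 309, 339 and 321 CPM in ATP11A/C KD and 340.2, 326, 342 and 359.9 CPM in CDC50A KD, against 409.8, 399, 399 and 405 CPM in Parental. All KD libraries lay below Parental, and those of ATP11A/C KD and CDC50A KD overlapped each other. The log2 fold changes were -0.86 ± 0.0411, -0.30 ± 0.0408 and -0.24 ± 0.0408 (adjusted p = 2.08e-13, 4.41e-06 and 6.04e-05). Counts per gene do not separate the long, interferon-inducible isoform of ADAR from the short constitutive one. The gene shares 1365 exon bases, 16.8% of its own, with Chrnb2 on the opposite strand. Chrnb2 averaged 20.2 ± 0.826 CPM in ORP5/8 KD, against 8.99 ± 0.586 CPM in Parental, a rise of 1.16 on the log2 scale (adjusted p = 7.55e-12). The library kit keeps strand and the deposited counts are named as stranded, but the exact strand setting of the counting is not given in the sources used here.

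Per kilobase of exon, the members spanned a wide range. The length used is the union of all annotated exons, from 1147 bases for Trex1 to 9018 bases for Ikbke. This union can exceed the length of a transcript, so the ranks between genes depend on the annotation. In Parental Trex1 stood at 99.3 ± 2.77 CPM per kb, Adar at 49.7 ± 0.627, Ddx58 at 41.3 ± 1.09 and Dhx58 at 35.8 ± 0.914. Mavs, Ifih1, Aim2, Tbk1 and Zbp1 formed a middle group between 10.7 and 16.5 CPM per kb, and Ikbke was lowest at 4.82 ± 0.299 CPM per kb. In ORP5/8 KD the order changed: Mavs, at 17.3 ± 0.179 CPM per kb, and Aim2, at 16.9 ± 0.699 CPM per kb, stood above Ddx58, at 8.80 ± 0.143 CPM per kb, and Zbp1 was lowest at 0.326 ± 0.0371 CPM per kb. The Trex1 level carries the uncertainty of the bases shared with Atrip.

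The KD groups were also compared directly. In ORP5/8 KD against ATP11A/C KD 7 members were lower and 1 was higher, where 20.4% of all tested genes were called lower and 18.2% higher. With upper-quartile scaling the split of all calls there moved to 60.5% higher, from 47.2%. In ORP5/8 KD against CDC50A KD 7 members were lower and 3 were higher, where 29.4% and 27.5% of all tested genes were called in those directions. Upper-quartile scaling moved that split to 60.7% higher, from 48.4%. The 7 lower members were Ifih1, Ddx58, Dhx58, Zbp1, Ikbke, Trex1 and Adar in both comparisons. Zbp1 was 5.16-fold lower in ORP5/8 KD against ATP11A/C KD (log2 fold change -2.37 ± 0.139, adjusted p = 1.71e-11) and 8.86-fold lower against CDC50A KD (-3.15 ± 0.134, adjusted p = 4.8e-14). Ifih1 was 2.41-fold and 3.21-fold lower (log2 fold changes -1.27 ± 0.0480 and -1.68 ± 0.0480, adjusted p = 1.37e-14 and 1.1e-16). Aim2 was higher in ORP5/8 KD in both, by 0.18 ± 0.0549 over ATP11A/C KD and 0.34 ± 0.0554 over CDC50A KD on the log2 scale (adjusted p = 0.0107 and 2.3e-05).

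Tbk1 was higher in ORP5/8 KD than in CDC50A KD, by 0.47 ± 0.0851 (adjusted p = 9.7e-05), as it was in ATP11A/C KD against CDC50A KD, by 0.39 ± 0.0855 (adjusted p = 0.00244). Between ORP5/8 KD and ATP11A/C KD its interval was -0.096 to 0.25 (adjusted p = 0.499). Mavs was higher in ORP5/8 KD than in CDC50A KD, by 0.15 ± 0.0579 (adjusted p = 0.0317), a call that was lost without ORP5/8 KD 2 or 4 or CDC50A KD 1 or 2 (adjusted p = 0.0539 to 0.0643). Against ATP11A/C KD the Mavs value was 0.14 ± 0.0576 and was not called (adjusted p = 0.0657), but it was called with upper-quartile scaling (0.19, adjusted p = 0.0122), with the filter of 1 CPM (0.15, adjusted p = 0.0450) and without ATP11A/C KD 1 or 4 (adjusted p = 0.0174 and 0.0436).

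In ATP11A/C KD against CDC50A KD 5 members were lower and 2 were higher, where 13.5% and 12.7% of all tested genes were called in those directions. The 5 were Ifih1 (-0.41 ± 0.0455), Ddx58 (-0.44 ± 0.0436), Dhx58 (-0.36 ± 0.0613), Zbp1 (-0.78 ± 0.108) and Trex1 (-0.21 ± 0.0602), as log2 fold changes. Their adjusted p were 3.96e-06, 1.08e-06, 0.000282, 4.06e-05 and 0.0148, and the libraries of the 2 groups did not overlap in any of the 5. The share of all tested genes whose libraries did not overlap was not counted. The Trex1 call was lost without CDC50A KD 3 (adjusted p = 0.0671) or 4 (adjusted p = 0.0590). The 2 higher members, Tbk1 and Aim2, had overlapping libraries. The Aim2 value of 0.16 ± 0.0558 (adjusted p = 0.039) was no longer called without ATP11A/C KD 2, 3 or 4, without CDC50A KD 1, 2 or 3, without the low-count filter or with the compared groups fitted alone (adjusted p = 0.0521 to 0.110). The intervals of the 3 uncalled members were -0.13 to 0.13 for Ikbke, -0.15 to 0.021 for Adar and -0.11 to 0.13 for Mavs.

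**Figure D3:**
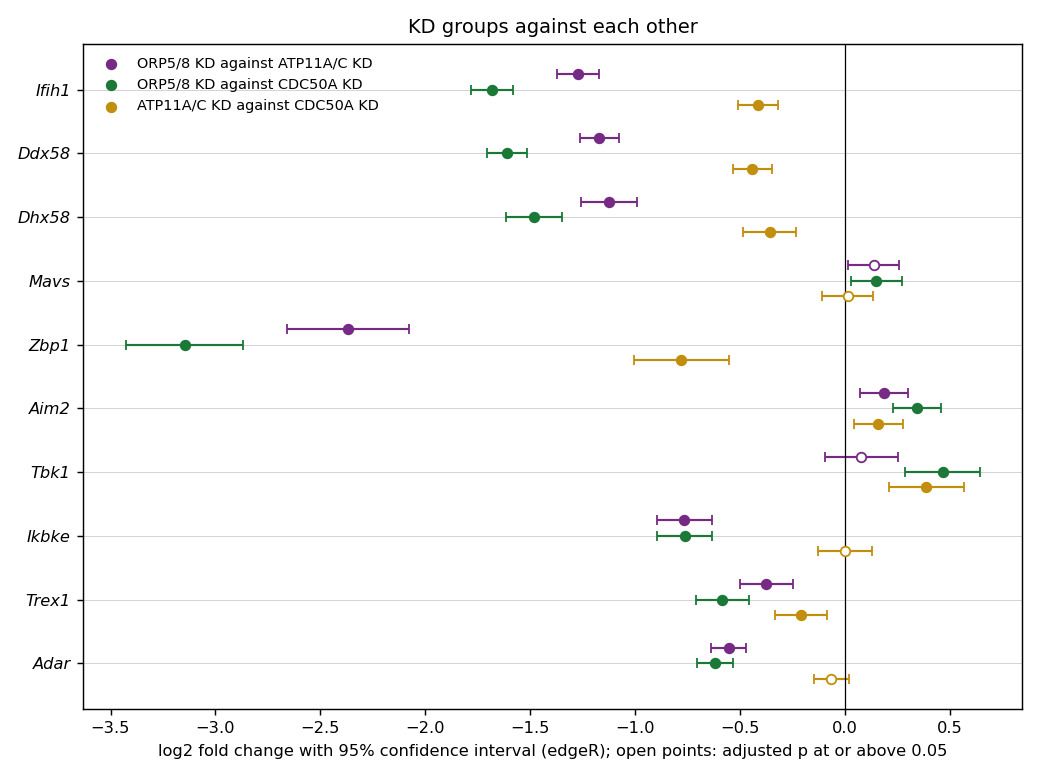
Log2 fold change of each gene (horizontal axis) between the KD groups, with 95% confidence intervals from edgeR; filled points were called at an adjusted p under 0.05. Ifih1, Ddx58, Dhx58, Zbp1 and Trex1 were called lower in all 3 comparisons. Ikbke and Adar were called lower in the comparisons of ORP5/8 KD, and Tbk1 was called higher in the comparisons with CDC50A KD.

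Beyond the 10 genes, 108 genes of 8 related lists were examined, of which 106 were in the table and 96 were tested. The lists too were chosen with earlier results of these data known, and the part of that choice in their shares was not tested. In ORP5/8 KD against Parental 47 of the 96 fell and 19 rose, in ATP11A/C KD 38 fell and 19 rose, and in CDC50A KD 39 fell and 25 rose. The shares lower were 49%, 39.6% and 40.6%, beside 24.3%, 20.2% and 26.1% of all tested genes, and the shares higher were 19.8%, 19.8% and 26%, near the 22%, 17.4% and 24.3% of all tested genes. Their median log2 fold changes were -0.11, -0.081 and -0.059, beside the medians over all genes given above. Of 17 cofactors and regulators of RNA sensing, 8 fell and 5 rose in ORP5/8 KD, 7 fell and 3 rose in ATP11A/C KD, and 5 fell and 5 rose in CDC50A KD. The shares lower were 47.1%, 41.2% and 29.4% and the shares higher 29.4%, 17.6% and 29.4%, so both CDC50A KD shares and the higher share in ATP11A/C KD lay near those of all tested genes. The number that rose in ORP5/8 KD was 3 without Parental 1 or 3 or ORP5/8 KD 4, and in ATP11A/C KD it was 5 without ATP11A/C KD 2. In CDC50A KD it was 2 without Parental 3, and 3 without CDC50A KD 2, 3 or 4 or with the filter of 1 CPM. Ddx60, which encodes a helicase-like partner of RIG-I, averaged 4.30 ± 0.390 CPM in ORP5/8 KD, 10.0 ± 2.34 CPM in ATP11A/C KD and 10.4 ± 1.14 CPM in CDC50A KD, against 29.1 ± 2.35 CPM in Parental. Usp18, which encodes the protease that removes ISG15 and restrains interferon receptor signalling, fell by 2.22, 0.92 and 0.58 on the log2 scale in the 3 groups. Eif2ak2, which encodes the RNA-activated kinase PKR, fell by 1.46, 0.74 and 0.55. Trim25, which encodes a ubiquitin ligase for RIG-I, fell by 0.69, 0.41 and 0.43. Pcbp2, which encodes an RNA-binding protein that promotes the degradation of MAVS, rose by 0.12, 0.21 and 0.38.

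Of 13 tested genes of DNA sensing, 4 rose and 3 fell in ORP5/8 KD, 5 rose and 1 fell in ATP11A/C KD, and 6 rose and 3 fell in CDC50A KD. The shares higher were 30.8%, 38.5% and 46.2%, beside 22%, 17.4% and 24.3% of all tested genes, and the shares lower were 23.1%, 7.69% and 23.1%, beside 24.3%, 20.2% and 26.1%. The shares lower in ORP5/8 KD and CDC50A KD lay near those of all genes. With upper-quartile scaling 7 of the 13 rose in ORP5/8 KD. Xrcc5, which encodes the Ku80 subunit of the DNA end-binding complex, rose by 0.34, 0.34 and 0.54 on the log2 scale in the ORP5/8, ATP11A/C and CDC50A KD groups. Lrrfip1, which encodes a nucleic acid binding protein, fell by 0.24, 0.28 and 0.29. Among 13 enzymes of nucleic acid clearance, 4 fell and 5 rose in ORP5/8 KD, 4 fell and 1 rose in ATP11A/C KD, and 7 fell and 3 rose in CDC50A KD. These make shares of 30.8%, 30.8% and 53.8% lower and 38.5%, 7.69% and 23.1% higher, of which the lower share in ORP5/8 KD and the higher share in CDC50A KD lay near those of all tested genes. In ATP11A/C KD none rose without Parental 3 or 4 or ATP11A/C KD 1, and 2 rose with upper-quartile scaling. Samhd1, which encodes a dNTP hydrolase, fell by 0.86, 0.36 and 0.16. Rnaseh2c, which encodes a subunit of RNase H2, rose by 0.64, 0.41 and 0.69. Dnase1l3, a secreted DNase gene chosen after its values were seen, averaged 0.101 ± 0.0479 CPM in ORP5/8 KD, 0.387 ± 0.214 CPM in ATP11A/C KD and 0.465 ± 0.241 CPM in CDC50A KD, against 0.448 ± 0.144 CPM in Parental, and was called in ORP5/8 KD, on 16 counts summed over its 4 libraries, beside 59 Parental counts (log2 fold change -2.12 ± 0.515, adjusted p = 0.00186). Dnase2a, which encodes the lysosomal DNase, rose by 0.20 in ORP5/8 KD and fell by 0.15 and 0.27 in ATP11A/C and CDC50A KD (adjusted p = 0.000475, 0.0103 and 2.57e-05).

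Among 19 adaptors of the kinases and the transcription factors below them, 10 fell in ORP5/8 KD and 9 in each of ATP11A/C and CDC50A KD, while 2, 2 and 3 rose. In shares of the list, 52.6%, 47.4% and 47.4% fell, beside 24.3%, 20.2% and 26.1% of all tested genes, and the shares that rose were 10.5%, 10.5% and 15.8%, beside 22%, 17.4% and 24.3%. Without ORP5/8 KD 3 the number that rose in ORP5/8 KD was 1, and with the compared groups fitted alone 5 rose in CDC50A KD. Irf7, which encodes the factor that amplifies interferon production, averaged 44.0 ± 3.82 CPM in ORP5/8 KD, 248.8 ± 14.4 CPM in ATP11A/C KD and 348 ± 31.1 CPM in CDC50A KD, against 632 ± 18.3 CPM in Parental. Its log2 fold changes were -3.85 ± 0.0694, -1.34 ± 0.0622 and -0.86 ± 0.0615 (adjusted p = 5.53e-20, 3.07e-13 and 2.91e-10). Irf1 fell by 0.84, 0.61 and 0.69 on the log2 scale. Irf5, a factor activated below endosomal receptors, fell in ORP5/8 KD (log2 fold change -0.52 ± 0.0433, adjusted p = 2.02e-09), and its values of -0.0049 and 0.061 in ATP11A/C and CDC50A KD were not called. Tnfaip3, which encodes the inhibitor A20, fell by 1.04, 0.33 and 0.54. Among 9 genes of interferon signalling, 7, 6 and 5 fell and 1, 2 and 2 rose. Of the list 77.8%, 66.7% and 55.6% were lower, above the shares of all tested genes. The shares higher were 11.1%, 22.2% and 22.2%, beside 22%, 17.4% and 24.3% of all tested genes. The number that rose in ORP5/8 KD was 2 with upper-quartile scaling and without Parental 1 or ORP5/8 KD 3. Stat2, which encodes a transcription factor activated by the interferon receptor, fell by 1.63, 1.29 and 1.16. Irf9, which encodes its DNA-binding partner, fell by 0.62, 0.22 and 0.16. Socs3, which encodes an inhibitor of cytokine receptors, rose by 0.98, 0.53 and 0.43. Ifnar2, which encodes a chain of the interferon receptor, rose by 0.24 in ATP11A/C KD and by 0.30 in CDC50A KD, and its value of 0.11 in ORP5/8 KD was not called. Ifnb1, which encodes interferon beta, was below the low-count filter, with 3, 4 and 6 counts summed over the 4 libraries of ORP5/8, ATP11A/C and CDC50A KD, against 23 in Parental.

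**Figure D4:**
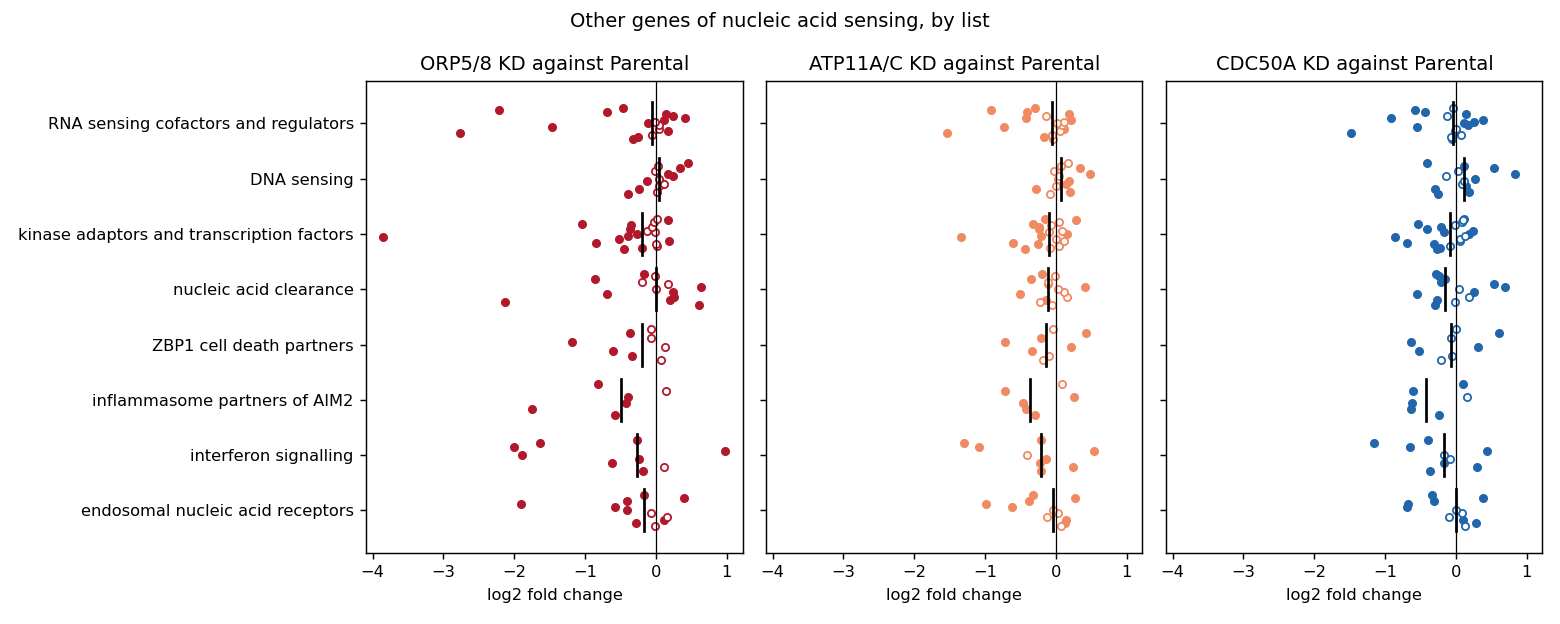
Log2 fold change against Parental (horizontal axis) of the 96 tested genes of 8 lists related to nucleic acid sensing, with a panel for each KD group; each point is a gene, filled when called at an adjusted p under 0.05 in edgeR, and vertical bars are list medians. Most genes lie between -1 and 1, and the point furthest left, Irf7 in ORP5/8 KD, is at -3.85.

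Across the 16 libraries, the genes whose log2 CPM followed each member most closely were sought among 8386 protein-coding genes with a mean of at least 10 CPM. The libraries form 4 groups, so these correlations mostly describe the order of the groups, and no p is given. Ifih1 was followed by Oasl2 and Sp100, with Pearson's r of 0.998 and 0.998. Ddx58 was followed by Oasl2, Trim30a and Epsti1 (r = 0.998 to 0.996), and Dhx58 by Oasl1, Ifi35 and Oasl2 (r = 0.998 to 0.996). For Zbp1 they were Ube2l6, Phf11b and Sp100 (r = 0.996 to 0.995), for Ikbke Uba7, Trafd1 and Rnf213 (r = 0.989 to 0.987), for Adar H2-T24, Irf7 and Lgals3bp (r = 0.994 to 0.990) and for Trex1 Ifit3, Sdc3 and Siglec1 (r = 0.987 to 0.986). The nearest genes of the other 3 members had lower r and were other genes: Zc3h7a, Relch and Odf2l for Tbk1 (r = 0.982 to 0.967), Rad1, Wdhd1 and Tfdp1 for Aim2 (r = 0.947 to 0.941) and Focad, Gys1 and Uhrf1bp1 for Mavs (r = 0.838 to 0.819). Among the members, r between Ifih1, Ddx58, Dhx58, Zbp1, Ikbke, Trex1 and Adar lay between 0.917 and 0.998. Aim2 had r of -0.786 with Ifih1, Mavs -0.343 and Tbk1 0.0894.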

How the data were processed

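RNA was sequenced from 16 libraries, 4 per group, grouped by their labels. Per the labels' protocols, 500 ng of RNA per library was prepared with the TruSeq Stranded mRNA kit and read as 100 bp pairs on a NovaSeq instrument. Per the submitters' processing notes, Trim Galore 0.5.0, STAR 2.7.5a, Picard, RSEM and the mm10 build were used. The authors deposited expected counts from RSEM, of which 4.641% carry decimals, and these were rounded to whole numbers here. The 92 spike-in records sum to 0 and were dropped. The column of Parental 3 was matched by its library name, since the number given with it in the labels differs from the column's by 1 digit.

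Genes with enough counts by filterByExpr (minimum count 10) numbered 13107 and held 99.97% of all counts. Counts were scaled by TMM and fitted in edgeR 4.0.16 (R 4.3.3) by quasi-likelihood, all 16 libraries together with a term per group. Benjamini-Hochberg adjustment was made over all genes of each of 6 comparisons. The biological coefficient of variation was 6.86%. Standard errors came from each estimate and F statistic. The procedure was tested on simulated data. Levels per kb use the union of exons in GENCODE M21 (GRCm38, mm10), and promoter windows are from RefSeq (GRCm38.p6).

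All 10 members were named. Of each related list, up to 4 genes with the smallest adjusted p against Parental were named, with any member called against the direction of most of its list, and for each member the 3 genes most like it. Not every gene that this rule takes is described, and some are not reported here. The members and the lists were chosen with earlier results of these data known. Atrip and Chrnb2 were named because they share exon bases with members.

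Alternatives were upper-quartile scaling or size factors from DESeq2 1.42.0 in place of TMM, its Wald test, no low-count filter or one of 1 CPM in 4 libraries, a replicate block, separate fits of the groups compared, and leaving out each library in turn. Limits from a count of 0 use 3 counts and cover counting error only.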

Additional observations from a re-analysis of the deposited data

Results flagged for a closer look

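Among the 40 combinations of a member and a group, 1 had a library far from the others by Dixon's test. Aim2 had 50.5 CPM in Parental 3, the highest of the 4 Parental libraries, against 47.4 CPM in the nearest and 46.9 CPM in the lowest. The gap of Parental 3 to the nearest library was 0.867 of the range of the group. Chance alone gives about 1 in 20 such combinations. The rise of Aim2 in ORP5/8 KD kept its direction and its call without Parental 3.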

How the results depend on the processing

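Each of the 60 log2 fold changes of the members was recomputed under the alternatives, and 866 of 900 recomputed values kept direction and call. Counts of members called changed by more than 1.5 times as follows. Members called higher in ORP5/8 KD against Parental numbered 2 with upper-quartile scaling, against 1. In ATP11A/C KD against Parental the number called higher was 0 to 1 when each library was left out. In ORP5/8 KD against ATP11A/C KD it was 2 with upper-quartile scaling, with the filter of 1 CPM in 4 libraries and with the replicate block, and 1 to 2 when each library was left out. In ATP11A/C KD against CDC50A KD it was 1 without the low-count filter and with the compared groups alone, and 1 to 2 when each library was left out. The cause was not tested. Uncalled values that changed sign were Tbk1 in ORP5/8 KD against ATP11A/C KD (-0.0072 without ATP11A/C KD 1, and 0.043 to 0.14 without any other library) and, in ATP11A/C KD against CDC50A KD, Ikbke (-0.011 without the low-count filter, and -0.020 to 0.046 when each library was left out, below 0 without ATP11A/C KD 2 or 3 or CDC50A KD 1 or 2) and Mavs (-0.019 to 0.076, below 0 without ATP11A/C KD 1 or 4). Of the 720 counts recomputed for the related lists, 687 stayed within 1.5 times. No member was below the low-count filter, so the other pseudocount planned for such genes was not run.

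The labels do not say that a replicate number marks a shared culture or day. The deviations of same-numbered libraries had r of -0.166 to 0.105 (median 0.00805) over 24 pairs. Those of differently numbered libraries had r of -0.14 to 0.141 (median -0.00522) over 72 pairs, so the numbers were not taken as pairs. Still, 8 of 16 libraries correlated best with their own number, where 4 would if the numbers carried nothing. The 16 outcomes are not independent, so this is at most a hint from the data and not from the design. With the replicate block 5961 genes were called in ORP5/8 KD against Parental, against 6059 without it. Among the members it changed 1 call, Mavs in ORP5/8 KD against ATP11A/C KD (0.14, adjusted p = 0.0373). Zbp1 in ORP5/8 KD had the fewest counts of any member in any group, and its fold change had the widest interval of those against Parental.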

Other observations

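Receptors that detect nucleic acid inside endosomes were also measured. Of 11 tested genes, 6 fell and 2 rose in ORP5/8 KD against Parental, 4 fell and 3 rose in ATP11A/C KD, and 4 fell and 3 rose in CDC50A KD. The shares lower were 54.5%, 36.4% and 36.4%, beside 24.3%, 20.2% and 26.1% of all tested genes, and the shares higher were 18.2%, 27.3% and 27.3%, beside 22%, 17.4% and 24.3%. With the compared groups fitted alone 5 rose in CDC50A KD. Tlr3, which encodes the receptor for double-stranded RNA, averaged 9.47 ± 1.13 CPM in ORP5/8 KD, 17.9 ± 0.257 CPM in ATP11A/C KD and 22.1 ± 2.16 CPM in CDC50A KD, against 35.3 ± 1.95 CPM in Parental. Its log2 fold changes were -1.90 ± 0.0794, -0.98 ± 0.0758 and -0.68 ± 0.0753 (adjusted p = 1.86e-14, 1.11e-09 and 2.44e-07, edgeR). Tlr13, which encodes the mouse receptor for bacterial ribosomal RNA, fell by 0.58, 0.62 and 0.69 on the log2 scale. Tlr9, which encodes the receptor for unmethylated CpG DNA, rose by 0.39, 0.27 and 0.38. Unc93b1, the chaperone that carries these receptors to endosomes, fell by 0.17, 0.32 and 0.34. Ticam1, which encodes the adaptor TRIF below TLR3, fell in ORP5/8 KD (-0.41 ± 0.0639, adjusted p = 1.7e-05) and was not called in ATP11A/C KD (-0.044) or CDC50A KD (-0.0044).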
